A study of Drosophila melanogaster with 3 samples.

Results

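The Imd genes of Drosophila melanogaster were examined in a chromatin immunoprecipitation sequencing (ChIP-seq) study of CG3995, a protein carried by a stable transgenic line as a fusion with GFP at its C terminus. The members were 9 protein-coding genes, imd, Fadd, Dredd, Tak1, IKKbeta, key, Rel, PGRP-LC and PGRP-LE, of 13945 protein-coding genes on the main chromosome arms. They were chosen by name as core components of one pathway, with the peak signals, ranks and distances of these same lists already known, so every count and value of the members is given as a description with no test. Whole embryos of mixed sex aged 0 to 24 hours were used, and chromatin was sheared to fragments of 200 to 800 bp by sonication, per the labels. For the precipitation, the sample description gives an antibody against GFP, while the antibody field names CG3995. The 3 biological replicates carried the same transgene and were all of one group, so there was no other condition to set them against. All 9 symbols were found in the gene annotation.

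The Imd pathway is the arm of fly innate immunity that senses the peptidoglycan of mainly Gram-negative bacteria. The receptors PGRP-LC, at the cell surface, and PGRP-LE, inside the cell, recruit the adaptor Imd, which binds the adaptor Fadd and the caspase Dredd, a homologue of mammalian caspase-8. Ubiquitin chains on the cleaved Imd bring in the kinase Tak1, which activates the IκB kinase made of the catalytic subunit IKKbeta and the regulatory subunit key (Kenny). The NF-κB factor Relish, the product of Rel, is then phosphorylated, cleaved by Dredd and moved to the nucleus, where it switches on antimicrobial peptide genes.

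The deposited data were lists of regions, each with a summit and a signal value that the authors computed as enrichment over a control file. The thresholded list held 4260 peaks, which were the 4260 strongest of the 27868 regions in the list called on all replicates together (the pooled list). The lists of replicates 1, 2 and 3 held 30000, 28051 and 24171 regions, background included. Signal was ranked within each list, rank 1 being the strongest, since its scale differed between lists. Of the thresholded peaks, 3107 (72.9%) were overlapped by the 4260 strongest regions of every replicate. A gene had a promoter peak when a thresholded summit lay at most 500 bp from any of its annotated starts. The read depth was unknown, the control file was not analysed here, and a peak at a promoter may reflect general recovery of open chromatin as well as the tagged protein. In whole embryos a strong signal in few cells and a weak one in many cannot be told apart.

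The strongest Imd gene peaks, at IKKbeta and Dredd, lay in short stretches between starts that point away from each other, and these stretches are shown because they hold the summits. Both are RefSeq sequence of dm6, plus strand, written 5′ to 3′. The first covers every base between the IKKbeta and CG5013 starts, chr3R:16049422-16049669 (248 bases), with the summit at base 188. The second covers the 253 bases before the su(sable) start, chrX:635637-635889, which are part of the intergenic stretch between su(sable) and Dredd, with the summit at base 191. Capitals mark CGATA, the core of the DNA replication-related element (DRE), and GTCAC, the core of the promoter sequence Motif 1, on either strand (TATCG and GTGAC on the minus strand).
IKKbeta to CG5013: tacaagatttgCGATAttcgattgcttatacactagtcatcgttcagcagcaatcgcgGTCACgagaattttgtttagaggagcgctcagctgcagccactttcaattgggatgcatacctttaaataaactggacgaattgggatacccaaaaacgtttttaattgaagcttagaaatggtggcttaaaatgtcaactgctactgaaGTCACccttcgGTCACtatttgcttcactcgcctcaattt
Dredd to su(sable): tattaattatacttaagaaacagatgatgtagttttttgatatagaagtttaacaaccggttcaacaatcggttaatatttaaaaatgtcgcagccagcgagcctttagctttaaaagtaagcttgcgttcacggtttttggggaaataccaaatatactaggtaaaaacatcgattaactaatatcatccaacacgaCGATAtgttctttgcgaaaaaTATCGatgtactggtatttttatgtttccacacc

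At the weaker peaks of Fadd and PGRP-LC shorter stretches are shown, because each holds a DRE core close to the summit. They are chr3R:22034420-22034448 at Fadd (29 bases), chr3L:9338212-9338240 upstream of PGRP-LC (29 bases) and chr3L:9341123-9341223 in a PGRP-LC intron (101 bases), each centred on its summit. The last sequence, chrX:15802987-15803015 (29 bases), lies beside the PGRP-LE summit of the pooled list. It alone among the regions searched held a complete DRE, whose letters are TATCGATA, within 50 bp of the summit. The regions searched were the thresholded peaks and, for genes without a promoter peak, the strongest promoter region of the pooled list. Build, strand and capitals are as above, with the complete DRE in capitals too.
Fadd: ctcaaacacctattcagtgctgatCGATA
PGRP-LC upstream: ttgtgcgccagtacaacatcatTATCGgt
PGRP-LC intron: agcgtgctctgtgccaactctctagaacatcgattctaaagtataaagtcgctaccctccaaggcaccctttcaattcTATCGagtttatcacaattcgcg
PGRP-LE: atcagtctagaTATCGATAagtatTATCG

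Promoter peaks were found at 4 of the 9 Imd genes, Fadd, Dredd, IKKbeta and Rel, beside 28.2% of all protein-coding genes. A thresholded summit lay inside the gene at 2 of 9, PGRP-LC and Rel, beside 11.7% of all protein-coding genes. When each summit was given only to the gene with the nearest start, 2 of 9 kept a promoter peak, Fadd and Rel, beside 20.6% of all protein-coding genes. Regions of the pooled list and of all 3 replicate lists lay within 500 bp of a start at 8 of 9, the exception being PGRP-LC, beside 43.0% of all protein-coding genes. Since these contrasts were known when the genes were chosen, nothing is read from the differences from the background. By role, promoter peaks were at the genes of the adaptor Fadd and the caspase Dredd but not at imd, at 1 of the 3 genes of the kinase step (IKKbeta, not Tak1 or key), at the gene of the transcription factor, and at neither receptor gene.

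**Figure D1:**
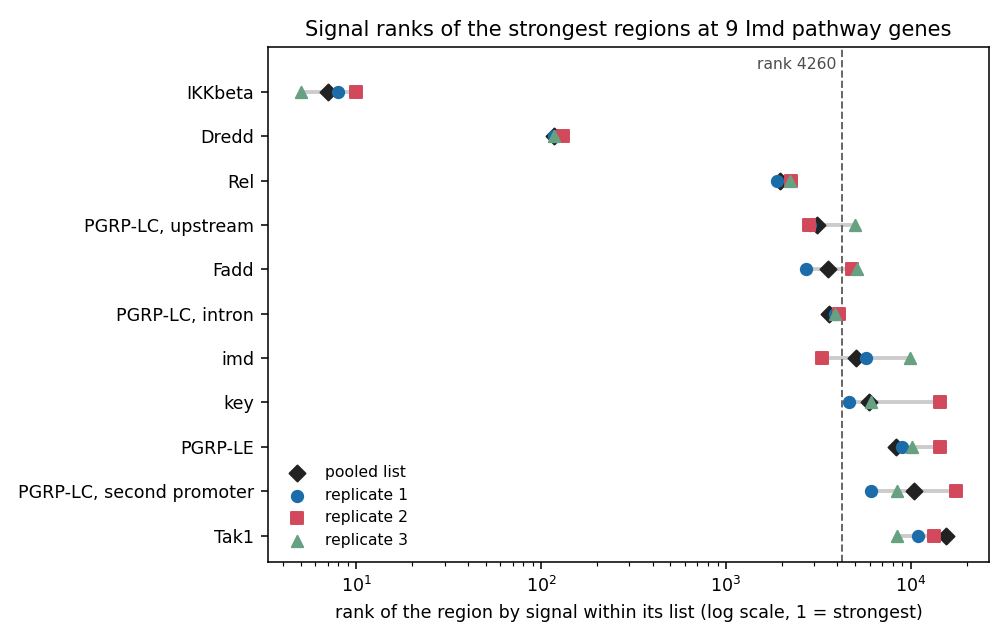
Rank by signal (log scale, 1 is the strongest) of the strongest regions at the 9 Imd genes in the pooled list (diamonds) and in the lists of replicates 1 (circles), 2 (squares) and 3 (triangles), with the dashed line at rank 4260. IKKbeta (ranks 5 to 10), Dredd (117 to 131) and Rel (1892 to 2243 in the replicates) stand apart from each other and from the rest, while each lower region overlaps the next in the order.

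Among the receptors, PGRP-LC (FBgn0035976) spans 9338810 to 9348336 on the plus strand of 3L and has 4 annotated starts for 10 transcripts. Its strongest summit, at 9338226, lay 584 bp upstream of the first start, in the 3′ UTR of the neighbouring gene PGRP-LA, another peptidoglycan recognition protein gene. This peak had a signal of 166 and rank 3118 in the pooled list, and signals of 80.9 (rank 2852), 57.7 (rank 2818) and 32.2 (rank 4994) in replicates 1, 2 and 3. Replicates 1 and 2 placed it within their 4260 strongest regions, and replicate 3 did not. The other PGRP-LC peak had its summit at 9341173, in an intron 719 bp downstream of the start at 9340454. Its signal was 146 (rank 3624) in the pooled list, and its ranks in replicates 1, 2 and 3 were 3906, 4092 and 3886, so every replicate kept it. The replicate summits lay 578.3 ± 38.6 bp upstream of the first start for the upstream peak and 723.3 ± 30.8 bp downstream of the internal start for the intronic peak (mean ± SD, n = 3). Neither peak met the promoter definition, although both lay within 1000 bp of a start.

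The start at 9340438 of PGRP-LC had a weaker region of the pooled list, 230 bp upstream, with a signal of 60.6 and rank 10410. The overlapping replicate regions had ranks of 6094, 17596 and 8398, and their summits spread over 482 bp, so the position was not well defined. PGRP-LE (FBgn0030695), the intracellular receptor gene, spans 15801153 to 15803880 on the minus strand of X and has 2 starts. Its strongest region had the summit at 15803034, in the 5′ UTR and 65 bp upstream of the start at 15802969, with a signal of 72.2 and rank 8281. The replicate signals were 32.1, 17.3 and 20.7, with ranks of 8996, 14441 and 10113, all far below the thresholded list.

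The adaptor gene imd (FBgn0013983) spans 18409796 to 18413599 on the minus strand of 2R. Its strongest region, with the summit at 18413832, lay 233 bp upstream of imd and 219 bp upstream of a start of Dp1, a gene for a protein with many KH domains that is read in the other direction. The 2 starts were 451 bases apart, and the region covered neither of them. The signal was 109 and the rank 5052 in the pooled list, the first Imd gene region outside the thresholded list. In replicates 1, 2 and 3 the signals were 45.8, 50.6 and 20.9 and the ranks 5710, 3283 and 9889, so only replicate 2 had it among its 4260 strongest. A second imd region, 463 bp upstream of the internal start at 18411532, ranked 6038 in the pooled list. Replicate 3 placed its own region there at rank 3511, with the summit at 18412001. The replicate 1 summit there, at 18412060, was already inside Dp1 (5′ UTR or intron). A Dp1 start thus lay between these 2 positions, nearer to this region's summits than the imd start.

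Fadd (FBgn0038928), which encodes the death-domain adaptor that links Imd to Dredd, spans 22034455 to 22035617 on the plus strand of 3R. Its peak (22034226 to 22034641) had the summit at 22034434, 21 bp upstream of Fadd, and was the weakest of the promoter peaks at Imd genes. The signal was 147 and the rank 3577 in the pooled list, where the lowest thresholded signal was 127. The signals of replicates 1, 2 and 3 were 84.9, 37.5 and 31.9, and the ranks 2694, 4774 and 5084, so only replicate 1 had it within its 4260 strongest. The peak covered 3 more starts. The start of pit, which encodes a DEAD-box RNA helicase, was 136 bp from the summit on the same strand, and the summit lay in the 5′ UTR of pit. The starts of CG45099 and CG6015, both at 22034286 on the other strand, were 148 bp away. The replicate summits had a mean of 8.0 bp upstream of Fadd, with an SD of 35.3 bp (n = 3) and a range of 67 bp. Fadd had the nearest start in every replicate, and the replicate 3 summit lay downstream of it.

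Dredd (FBgn0020381), the caspase gene, spans 633622 to 635545 on the minus strand of X, and its 4 transcripts share 1 start. The peak (635392 to 636147, 756 bp wide) had an intergenic summit at 635827, 282 bp upstream of Dredd. The same summit lay 63 bp upstream of su(sable), which encodes a nuclear RNA-binding protein and is read away from Dredd, with 344 bases between the starts. The signal was 6478 and the rank 118 in the pooled list. The replicate signals were 2829, 1815 and 1895, with ranks of 117, 131 and 118. The replicate summits had a mean of 276.3 bp upstream of Dredd and a range of 19 bp (n = 3), so in every replicate the summit was nearer to su(sable) than to Dredd. Among the 3936 protein-coding genes with a promoter peak, ranked by their strongest peak, Dredd was 183rd, in the top 4.65%, and its signal was 28.5 times the median of the thresholded list, 227.

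Among the kinase genes, IKKbeta (FBgn0024222) spans 16046347 to 16049421 on the minus strand of 3R and has 1 start. Its peak (16049074 to 16050040, 967 bp wide) had an intergenic summit at 16049609. The signal was 22868 and the rank 7 in the pooled list, 101 times the thresholded median. In replicates 1, 2 and 3 the signals were 9630, 6534 and 6861 and the ranks 8, 10 and 5. No other Imd gene region came within the first 100 ranks of any list. IKKbeta was 9th of the 3936 protein-coding genes with a promoter peak, in the top 0.229%. The summit lay 188 bp upstream of IKKbeta and of lncRNA:CR45212, which share a start, and 61 bp upstream of CG5013 on the opposite strand. The 3 replicate summits fell within 4 bp of each other, 187.3 ± 2.1 bp upstream of IKKbeta (mean ± SD, n = 3), so the nearest start was that of CG5013 each time.

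The other kinase genes had no thresholded peak. The gene key (FBgn0041205), for the regulatory subunit that pairs with IKKbeta, spans 24785514 to 24787411 on the minus strand of 2R. Its only promoter region had the summit at 24787428, 17 bp upstream of the start, with a signal of 95.2 and rank 5918 in the pooled list. The replicate signals were 54.4, 17.4 and 28.2, with ranks of 4650, 14301 and 6051, so replicate 2 was lowest. Tak1 (FBgn0026323), the kinase gene that acts before IKKbeta, spans 20515908 to 20524928 on the minus strand of X. Its strongest region, 231 bp upstream of the start at 20524928, had a signal of 46.0 and rank 15379, the weakest of the 9 genes in the pooled list. The replicate ranks were 10881, 13313 and 8368, with summits that spread over 324 bp. In replicates 2 and 3 the Tak1 region was not the weakest, since that of PGRP-LE ranked 14441 and 10113.

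Rel (FBgn0014018), the NF-κB gene at the end of the pathway, spans 9044183 to 9047977 on the minus strand of 3R and has 4 starts. The peak (9047613 to 9048028) had the summit at 9047821, 8 bp downstream of the start at 9047829, in the 5′ UTR of Rel. This position is also in an intron of Nmdmc, which encodes a folate enzyme of the mitochondrion, but the nearest Nmdmc start was 830 bp away and that of Mst85C 824 bp away. Rel was therefore the only one of the 4 genes with no other gene's start within 500 bp of its promoter summit. The signal was 242 and the rank 1963 in the pooled list, 1.07 times the thresholded median. The replicate signals were 114, 69.4 and 59.2 and the ranks 1892, 2243 and 2214, all within the 4260 strongest. The replicate summits lay 12.3 ± 28.6 bp downstream of the start (mean ± SD, n = 3). A second, weaker region lay 66 bp upstream of the first start at 9047977, with rank 6664 in the pooled list and ranks of 8684, 6070 and 5832 in the replicates.

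**Figure D2:**
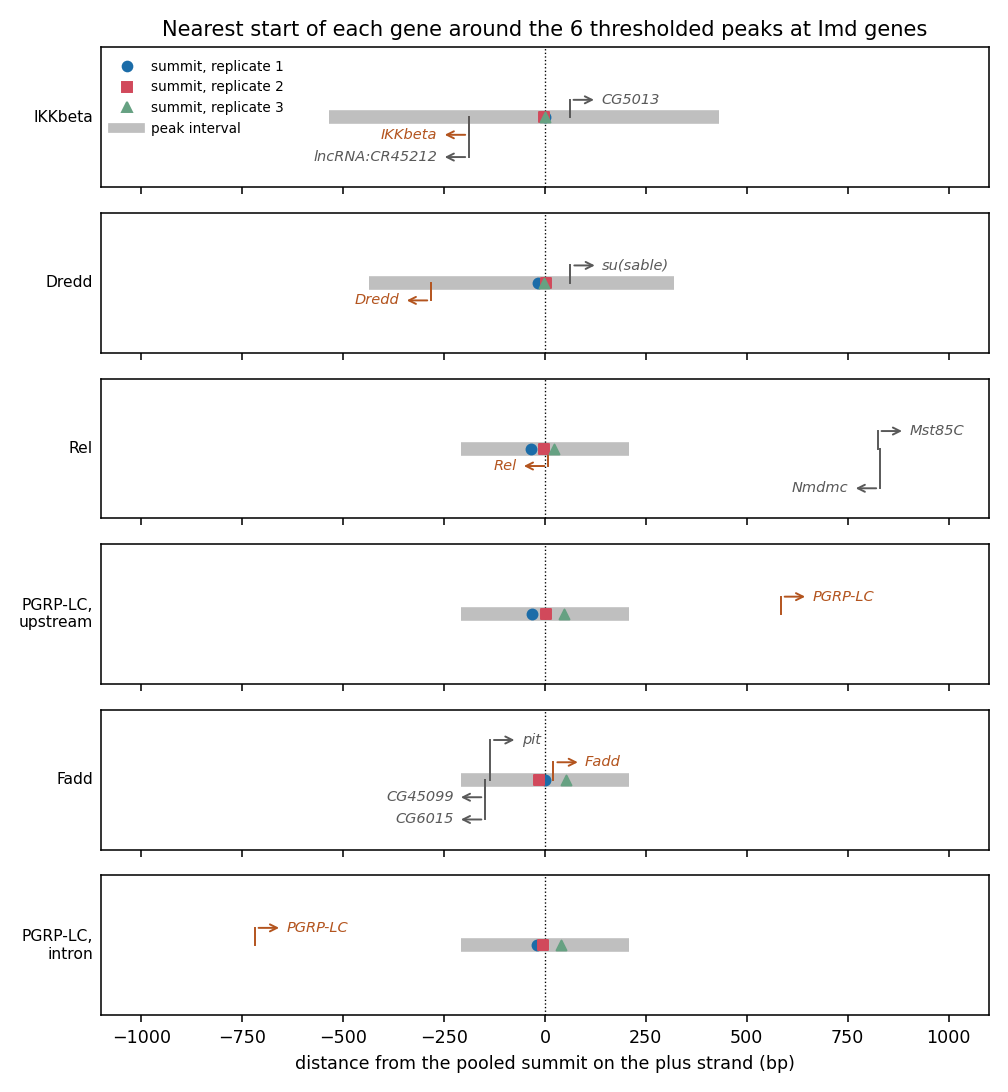
The 6 thresholded peaks at Imd genes (grey bars), the replicate summits (circle, square and triangle for replicates 1, 2 and 3) and the nearest start of each gene (arrows, in orange for the Imd gene), by distance from the pooled summit in bp on the plus strand. The summits at IKKbeta and Dredd lie 61 and 63 bp from the starts of CG5013 and su(sable), while those at Fadd and Rel lie 21 and 8 bp from the Imd gene's own start.

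At 3 of the 4 promoter peaks, IKKbeta, Dredd and Fadd, protein-coding starts lay on both strands within 500 bp of the summit. This held for 1250 (39.1%) of the 3199 thresholded promoter summits of the whole list. The distances from the Imd starts were 188, 282, 21 and 8 bp for IKKbeta, Dredd, Fadd and Rel. Measured to the nearest start of any gene, the IKKbeta, Dredd and Fadd summits lay 61, 63 and 21 bp upstream. The Rel summit lay 8 bp downstream. On that measure the median of all promoter summits was 59.0 bp upstream. Of all protein-coding genes with a promoter peak, 33.9% had their own start over 150 bp from their strongest summit, as IKKbeta and Dredd did. The peaks of Rel, Fadd and PGRP-LC had the width of 416 bp that 63.5% of thresholded peaks shared, with the summit at the centre of the interval, whereas the IKKbeta and Dredd peaks were wider and had summits off centre. At the threshold, the Imd gene regions just inside were Fadd (rank 3577) and the PGRP-LC intron (rank 3624), and those just outside were imd (rank 5052) and key (rank 5918).

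The replicate ranks of IKKbeta, Dredd and Rel did not overlap each other or those of any other Imd gene region. From the PGRP-LC upstream peak downwards, each region's replicate ranks overlapped those of the next in the pooled order, so neighbours in that order were not separated beyond the spread between replicates. Regions farther apart could be, as the PGRP-LC intron peak (ranks 3886 to 4092) was from key (4650 to 14301) and PGRP-LE (8996 to 14441). The −log10 q-values did not separate the peaks, since all 6 thresholded peaks had 3.91, the highest value of the list, which 4036 of the 4260 shared. The values were 3.05 for imd, 2.40 for key, 1.31 for PGRP-LE and 0.31 for Tak1. By the Euclidean distance of log2 ranks over the 3 replicates, the gene most like IKKbeta among 3882 compared was UQCR-C2 (distance 0.77), a subunit of mitochondrial respiratory complex III, with ranks of 9, 8 and 8. The most like Dredd was CG1622 (distance 0.13), with ranks of 127, 127 and 117 and with CG1764 at the same peak. The most like Rel was deltaCOP (distance 0.07), a subunit of the COPI vesicle coat. The most like Fadd was CG5880 (distance 0.08), with CG6066 at the same peak.

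Short promoter sequences were searched on both strands within 50 bp of the 6 thresholded summits. The DRE, bound by the factor DREF, and Motif 1 are both known from promoters of broadly expressed fly genes. The DRE core CGATA was present at 5 of the 6 summits, all but IKKbeta, beside 30.2% of all thresholded summits and 21.4% of all annotated starts. Within 25 bp it was at 3 of the 6, beside 18.4% of all thresholded summits, and within 100 bp at all 6, beside 44.9%. Its centre was 10 bp from the summit at Dredd, 12 bp at Fadd, 39 bp at Rel, and 10 and 30 bp at the upstream and intronic PGRP-LC peaks. Dredd had a second match 31 bp from the summit, and at least 2 matches were found at 15.2% of thresholded summits, where a complete DRE counts as 2 because it holds the core on both strands. The complete DRE (TATCGATA) was at none of the 6, beside 7.02% of thresholded summits and 3.76% of starts. At IKKbeta the nearest CGATA was 64 bp away, on the CG5013 side, outside the window.

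IKKbeta was the only one of the 6 with the Motif 1 core GTCAC in the window, beside 26.1% of thresholded summits and 15.9% of starts. It had 2 matches on the plus strand, 23 and 34 bp from the summit towards CG5013, and 5.42% of thresholded summits had at least 2. The complete Motif 1 (GGTCACAC) was at none of the 6, beside 3.40% of thresholded summits and 3.90% of starts. GAGAG, the GAGA sequence, was at both PGRP-LC peaks, 20 and 31 bp from the summits, and at no promoter peak of an Imd gene, beside 8.50% of thresholded summits and 12.6% of starts; within 25 bp only the upstream PGRP-LC peak held it. TATAAA was at the intronic PGRP-LC peak alone, 6 bp from the summit, beside 15.6% of thresholded summits and 15.0% of starts. The share of G and C in the 101 bp windows was 38.6% at IKKbeta, 31.7% at Dredd, 50.5% at Rel and 34.7% at Fadd, with a median of 37.6% over all thresholded summits. A match is a description of the letters and not a binding site.

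**Figure D3:**
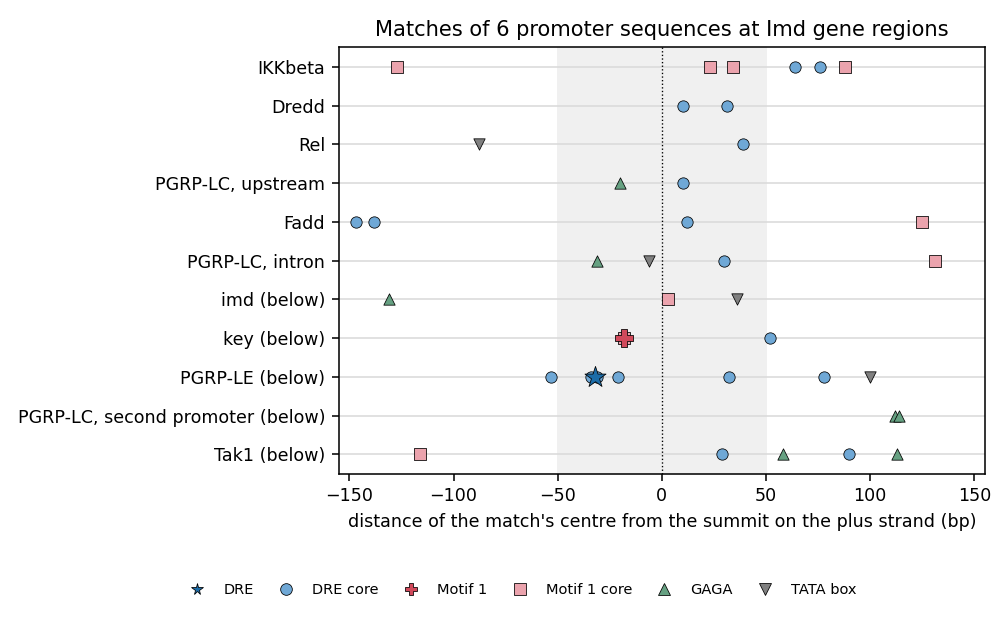
Matches of 6 short promoter sequences around the summits of the Imd gene regions, by distance of the match's centre from the summit in bp on the plus strand, with the window of 50 bp to each side in grey and regions outside the thresholded list marked as below. The DRE core falls inside the window at 5 of the 6 thresholded peaks, and IKKbeta has 2 matches of the Motif 1 core.

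Outside the thresholded list, the PGRP-LE region held the complete DRE 32 bp from its summit, on the side of the start. The region of key held the complete Motif 1 at 18 bp, across its start, and that of imd held the Motif 1 core 3 bp from the summit. The Tak1 region held 1 DRE core within 50 bp of the summit, at 29 bp, and another at 90 bp.

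Genes that act with the 9 were then counted in lists drawn up by role. The lists hold only 10 to 22 genes each, so nothing is read from their differences from the background. Of 22 other Imd components and regulators, 10 had a promoter peak (45.5%), beside 28.2% of all protein-coding genes. The strongest was at scny, which encodes a deubiquitinase, with a signal of 1674 and rank 292, 45 bp upstream of the start. POSH, a ubiquitin ligase gene, had 498 (rank 807, 147 bp upstream, with Ns2 nearer). Charon had 279 (rank 1643), and ben, which encodes an enzyme that builds ubiquitin chains, had 265 (rank 1749). No gene of this list reached the signal of Dredd or IKKbeta.

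The further 6 genes of that list with a promoter peak were PGRP-LB, trbd, eff, SkpA, akirin and dnr1. The regulators without one were PGRP-LA, PGRP-LF, PGRP-SC1a, PGRP-SC1b, PGRP-SC2, PGRP-SD, pirk, Tab2, Diap2, Uev1A, CYLD and casp. Of 8 further peptidoglycan recognition protein genes in the lists, PGRP-LB alone, the gene of an enzyme that degrades peptidoglycan, had a promoter peak, at rank 1804 and 403 bp from its start. The antimicrobial peptide genes had 0 of 14, beside 28.2% of all protein-coding genes. Dro alone of them had regions near a start in every list, at rank 14884 of the pooled list.

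Of 20 Toll pathway genes, 8 had a promoter peak (40.0%), beside 28.2% of all protein-coding genes. They were led by the adaptor gene Myd88 with a signal of 1217 (rank 359), Pli with 631 (rank 629), Traf6 with 271 (rank 1701) and the IκB gene cact with 249 (rank 1900). The Toll pathway NF-κB genes dl and Dif had none. Of 12 genes of the JNK branch, which also runs from Tak1, 6 had one, led by the kinase genes Mkk4 with 832 (rank 476) and slpr with 570 (rank 699), the receptor gene grnd with 375 (rank 1129) and the JNK gene bsk with 283 (rank 1610). The kinase gene hep had none. The summits at Mkk4 and Traf6 lay nearer to the start of another gene.

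Of 10 JAK/STAT genes, 6 had a promoter peak (60.0%), beside 28.2% of all protein-coding genes. They were led by the phosphatase gene Ptp61F with 483 (rank 832), the Janus kinase gene hop with 366 (rank 1162), Socs36E with 245 (rank 1938) and Su(var)2-10 with 223 (rank 2184). The 3 ligand genes, upd1, upd2 and upd3, had none. Of 12 apoptosis genes, 2 had a promoter peak (16.7%), beside the same 28.2%. These were the caspase gene Dcp-1 with 158 (rank 3317) and hid with 148 (rank 3562). The median pooled rank of the genes with a promoter peak was 1040 over the 4 Imd genes, 1937 over the other Imd components, 2018 for Toll, 1370 for JNK, 2061 for JAK/STAT, 3440 for apoptosis and 1825 over all protein-coding genes. The first of these rests on 4 values that run from rank 7 to rank 3577.

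**Figure D4:**
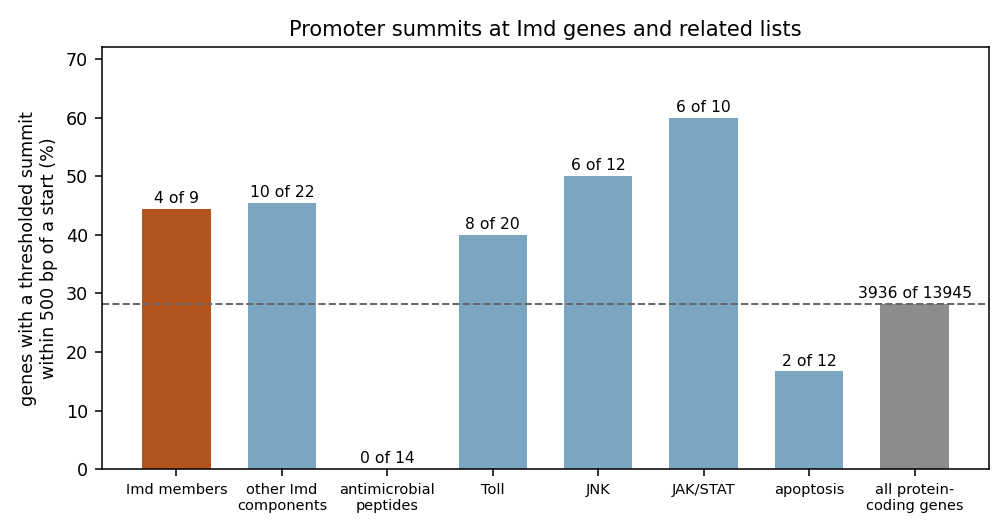
Share of genes (%) with a promoter peak in the 9 Imd genes, 6 related lists and all protein-coding genes, with the number of genes above each bar and a dashed line at 28.2%. The bars stand at 4 of 9 for the Imd genes, 10 of 22 for the other Imd components and 0 of 14 for the antimicrobial peptide genes.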

How the data were processed

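Per the submitters' processing notes, the authors called regions in each replicate and in the pooled replicates against a control file and thresholded them by the irreproducible discovery rate. The aligner, peak caller, versions and threshold are not given in the sources used here. The 5 deposited dm6 lists were used. In the narrowPeak layout, the deposited signal value is the authors' enrichment, and the deposited −log10 q-value is theirs too. No read depth could be computed from the lists, so no counting interval is given. The dm3 lists were not used here.

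Ranks, distances and counts were computed in Python 3.11.15 and drawn with Matplotlib 3.10.9. Starts came from Ensembl release 115 (BDGP6, patch 54), with 23584 distinct starts on the main arms, and sequence from RefSeq on the same assembly (dm6). Coordinates are 1-based. Replicate regions were matched by an overlap of at least 1 bp. Motif backgrounds used windows at Ensembl starts, since no RefSeq promoter table was used here. The counting steps were tested on simulated data.

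Members and lists were chosen with earlier results of these data known. Of 91 symbols in the 6 related lists, 90 were matched. Genes named were the members, genes with a start within 500 bp of a member's summit, up to 4 genes per list by signal, the gene most alike in replicate ranks, and members next to the threshold. Further genes of the lists were named as counted, with those the text singles out (PGRP-LB, Dro, hep, dl, Dif and the upd genes) chosen after their values were seen. Other distances, the stronger part of the list, merged peaks, single replicates and motif windows of 25 and 100 bp to each side were tried as alternatives.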

Additional observations from a re-analysis of the deposited data

How the results depend on the processing

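The count of 4 of 9 Imd genes with a promoter peak stayed within 1.5 times in 11 of 12 alternatives, although the genes in it changed. It was 3 within 200 bp, beside 22.6% of all protein-coding genes, and 5 within 1000 bp, beside 31.1%. It was 3 when any 1 replicate was left out, beside 22.8%, 23.0% and 24.4% without replicates 1, 2 and 3. Peaks were not called again for this. The settings were stricter than the main one, with 3178, 3209 and 3398 protein-coding genes kept, against 3936. Fadd, within the 4260 strongest regions of replicate 1 alone, was lost each time. The single nearest start gave 2, beside 20.6%. The strongest regions of replicate 1 alone gave the same 4 genes as the thresholded list, beside 28.0%. Those of replicates 2 and 3 alone gave imd in place of Fadd, beside 28.0% and 26.3%, but through different regions. In replicate 2 the imd region was 193 bp upstream of the start at 18413599 (rank 3283). In replicate 3 it was 469 bp upstream of the internal start at 18411532 (rank 3511), and the region near 18413599 ranked 9889. In the 2130 strongest thresholded peaks, protein-coding genes with a promoter peak numbered 2271 (16.3%), against 3936 in the whole list. The Imd genes with a promoter peak there numbered 3, Dredd, IKKbeta and Rel. Imd genes with a summit inside the gene numbered 1, against 2, beside 6.15% of all protein-coding genes. The strongest regions of replicate 3 alone gave 4 Imd genes with a summit inside (PGRP-LC, imd, Fadd and Rel), beside 12.3%. The count of 8 with regions in every list was 6 within 200 bp, beside 30.1%, and 9 within 1000 bp, beside 49.3%. All 6 thresholded peaks were overlapped in every replicate list, also when the overlap had to cover 0.5 of the shorter region. Of 18 replicate summit offsets, 12 moved by less than their SD. That SD was computed from the same 3 offsets of each peak, so this count is largely set by its definition and does not measure stability. The Rel and Fadd offsets changed side of their start in single replicates, both in replicate 3, with Rel 15 bp upstream and Fadd 32 bp downstream. The Rel summit of replicate 1 was 42 bp downstream, on the same side as the pooled one. Of 12 motif window alternatives, 9 kept their count within 1.5 times, the exceptions being the DRE core (3) and GAGA (1) within 25 bp and TATAAA (2) within 100 bp. Where a value moved the cause was not tested. The lists hold no depth, and absence from them says only that no region was called. No paired analysis was possible because there is 1 group.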

Other observations

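Some regions were strong in single replicates. Replicates 2 and 3 had a region in the 3′ UTR of Fadd, 1095 and 1079 bp downstream of its start, at ranks 6457 and 4212. In replicate 3 this was stronger than the region at the Fadd start (rank 5084), and neither the replicate 1 list nor the pooled list had a region there with its summit in the gene's 3′ UTR. At PGRP-LE, replicate 1 had 4 regions within 500 bp of a start, replicate 2 had 2 and replicate 3 had 2. Among the related genes, the thresholded peaks at trbd (rank 2070) and pll (rank 2446) had no overlapping region in the list of replicate 3, as had 36 of the 4260 thresholded peaks, although both ranked between 2076 and 2539 in the other 2 replicates.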
